A study of Drosophila melanogaster with 6 samples.

Results

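The vacuolar proton pump (V-ATPase) genes of Drosophila melanogaster were examined in whole embryos that made the salivary gland transcription factor Sage in most of their cells. Members were all genes whose RefSeq symbol starts with Vha and that had an array probe set naming them alone. These were 31 of the 33 Vha genes in RefSeq, read by 32 probe sets, among 11982 genes measured in this way. No probe set named Vha68-1 or Vha68-2 alone, so the broadly used catalytic A subunit is not among the members. Vha16-1 alone had more than 1 probe set, and the brighter of its 2 was used to represent it.

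The 3 Sage samples were embryos with UAS-Sage under the tub-Gal4 driver, which is active in most cells, and the 3 control samples were embryos of the tub-Gal4 driver strain without UAS-Sage. The driver was therefore common to both groups and the UAS transgene was not. Embryos of both groups were of stages 11 to 16, were aged at 25 °C and were passed through a COPAS sorter, and RNA was taken from whole embryos. Nothing in the labels states whether replicates were collected independently. The p-values therefore reflect variation among these 6 arrays alone, some of which may be technical, and 3 arrays per group limit the precision.

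The V-ATPase is a rotary enzyme that uses ATP to move protons across membranes. Its cytosolic V1 sector (subunits A to H) binds and splits ATP, and its membrane sector Vo (subunits a, c, c″, d and e) carries the protons. The pump acidifies endosomes, lysosomes and secretory compartments of nearly every cell, and in insect epithelia such as the Malpighian tubule it also sits in the plasma membrane and energises ion transport. In the fly many subunits are encoded by several paralogs, commonly 1 used broadly and others known from few tissues. From general knowledge, and not from a file, 7 genes were taken as the broadly expressed paralog of their subunit (Vha36-1, Vha14-1, Vha100-2, Vha16-1, VhaPPA1-1, VhaAC39-1 and VhaM9.7-b). Another 6 were taken as main genes. Of these Vha55, Vha44, Vha26, Vha13 and VhaSFD are each the only gene of their subunit, while VhaAC45 has a relative, VhaAC45RP. The remaining 18 were the other paralogs, VhaAC45RP among them. That last class is a working class, since not every one of its genes has a known tissue.

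Values are log2 signals as deposited, a difference of 1 meaning a doubling. The sage probe set, which does not separate transgene from endogenous gene, read 12.39, 12.53 and 12.50 on the Sage arrays, against 7.38, 7.50 and 7.66 on the control arrays. Array medians lay between 5.70 and 5.74 with Sage and between 5.56 and 5.69 in the controls. Control replicate 3 was furthest from the Sage arrays. Its Pearson's r across probe sets was 0.895 to 0.904 with the Sage arrays, 0.938 with control replicate 1 and 0.969 with control replicate 2. Among the Sage arrays r was 0.99 to 0.996. Between control replicates 1 and 2 it was 0.987, and control replicate 1 had 0.962 to 0.972 with the Sage arrays. Differences of the brighter genes that moved by over 1.5 times without control replicate 3 are also given without it.

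With 1 probe set to represent each gene, no pump gene passed the test between Sage and control embryos. The second probe set of Vha16-1, which is not in these counts, was called lower (-1.07, adjusted p = 0.00199 by limma). By limma, with Benjamini-Hochberg adjustment over 18769 probe sets and a threshold of 0.05, 0 of 31 Vha genes were called, where the same test called 17.8% of all genes (5.6% higher and 12.2% lower). Their adjusted p-values lay between 0.0748 (Vha14-2) and 0.98 (Vha100-1). At an unadjusted p under 0.05 there were 3, Vha100-5, Vha16-1 and Vha14-2, all higher with Sage, where 33.3% of all genes reached that level. Of the 31 differences 17 were positive and 14 negative, with a median of 0.10, against a median of 0.01 over all genes. That median was 0.02 without Sage replicate 2 and 0.03 without control replicate 3, where all genes had medians of -0.01 and 0.04, and 0.17 without Sage replicate 3. On all 3 Sage arrays 9 Vha genes were higher than on every control array and none was lower, where 19.9% of all genes were higher and 21% lower in this way. In RNA of whole embryos, fewer cells of a type and less RNA per cell cannot be told apart, here or in any later comparison.

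**Figure D1:**
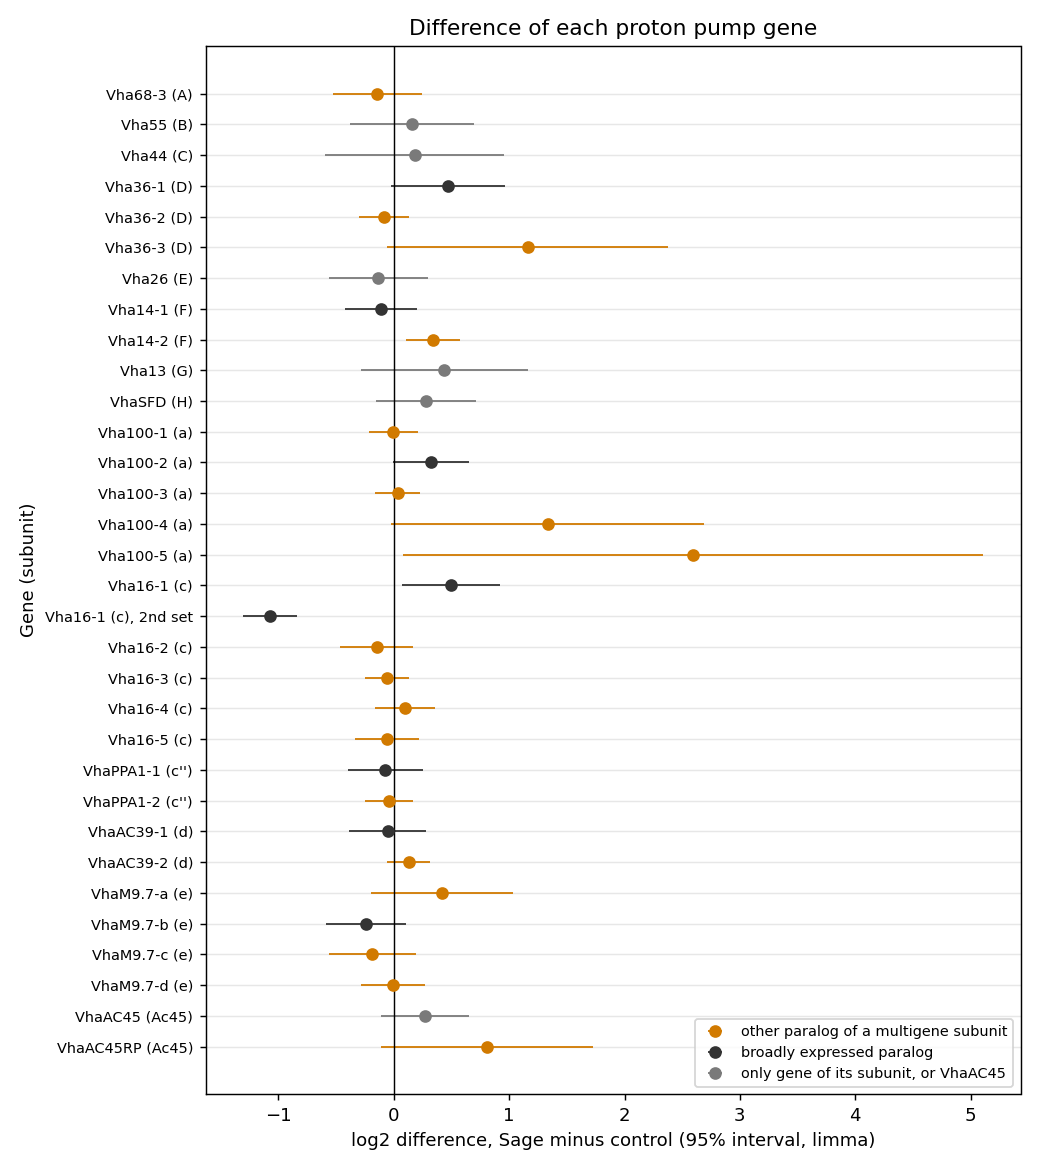
Each point is the log2 difference of a pump gene, Sage minus control, with its 95% interval from limma (3 arrays a group), in the order of the subunits, coloured by paralog class. The widest intervals are those of Vha100-5 (0.08 to 5.11), Vha100-4 (-0.02 to 2.69) and Vha36-3 (-0.06 to 2.38), and the second probe set of Vha16-1 lies below 0 (-1.31 to -0.84).

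The V1 sector was read by 11 genes, of which 7 had positive and 4 negative differences. Vha55, the B subunit that helps to bind nucleotide, read 11.42, 11.46 and 11.31 with Sage, against 11.65, 11.27 and 10.78 in the controls. The Sage arrays thus lay between the highest and lowest control, and the difference was 0.16 (SE 0.22, 95% interval -0.38 to 0.70). Vha26, the E subunit of the peripheral stalk, read 12.37, 12.45 and 12.51 with Sage, against 12.86, 12.67 and 12.21 in the controls, again with all Sage arrays inside the control range. Its difference was -0.13 (95% interval -0.56 to 0.29). Without control replicate 3 the differences were -0.06 for Vha55 and -0.32 for Vha26.

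The partner of Vha26 in the peripheral stalk, Vha13 (subunit G), had 12.24, 12.46 and 12.47 with Sage, against 12.45, 12.11 and 11.29 in the controls, and a difference of 0.44 (95% interval -0.28 to 1.16). Vha44 (subunit C), which takes part in the reversible assembly of the sectors, read 9.59, 9.35 and 9.47 with Sage, against 9.88, 9.38 and 8.61 in the controls. VhaSFD (subunit H), which restrains free V1, read 11.21, 11.39 and 11.33 with Sage, against 11.35, 11.06 and 10.68 in the controls. For these 3 genes the groups overlapped, since control replicate 1 was within or above the Sage arrays while control replicate 3 was below all of them. The differences of Vha44 and VhaSFD were 0.18 (95% interval -0.59 to 0.96) and 0.28 (95% interval -0.15 to 0.72). Without control replicate 3 the difference was 0.11 for Vha13, -0.16 for Vha44 and 0.11 for VhaSFD.

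The D subunit, which forms the rotating central shaft, was read by 3 paralogs. The broadly expressed Vha36-1 had 11.40, 11.62 and 11.58 with Sage, against 11.39, 11.16 and 10.64 in the controls, so that the groups just failed to touch. The difference of Vha36-1 was 0.47 (SE 0.20, adjusted p = 0.21 by limma), or 0.26 without control replicate 3 and 0.63 without control replicate 1. Its paralog Vha36-3 had 7.54, 7.57 and 7.76 with Sage, against 7.30, 6.78 and 5.31 in the controls. The Sage arrays were all higher than every control, but most of the distance came from control replicate 3. The difference of Vha36-3 was 1.16 (SE 0.50, adjusted p = 0.207 by limma) and was 0.58 without control replicate 3 and 1.58 without control replicate 1. The third paralog, Vha36-2, known from the testis, was dim, at 4.40 ± 0.09 with Sage and 4.48 ± 0.08 in the controls (SD, n = 3 each).

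Of the F subunit, also in the central shaft, Vha14-1 read 12.29, 12.43 and 12.39 with Sage, against 12.68, 12.51 and 12.25 in the controls, a difference of -0.11 (95% interval -0.42 to 0.20), or -0.22 without control replicate 3. Vha14-2 read 5.46, 5.35 and 5.35 with Sage, against 4.96, 4.996 and 5.20 in the controls. Vha14-2 was higher on all Sage arrays, by 0.34 (SE 0.10), yet its signals were dim, and RMA compresses differences of dim probe sets. Its adjusted p by limma was 0.0748, and 0.0266 without control replicate 3, with a difference of 0.41. The only A subunit gene among the members, Vha68-3, was dim, at 4.21 ± 0.04 with Sage and 4.36 ± 0.30 in the controls (SD, n = 3 each).

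**Figure D2:**
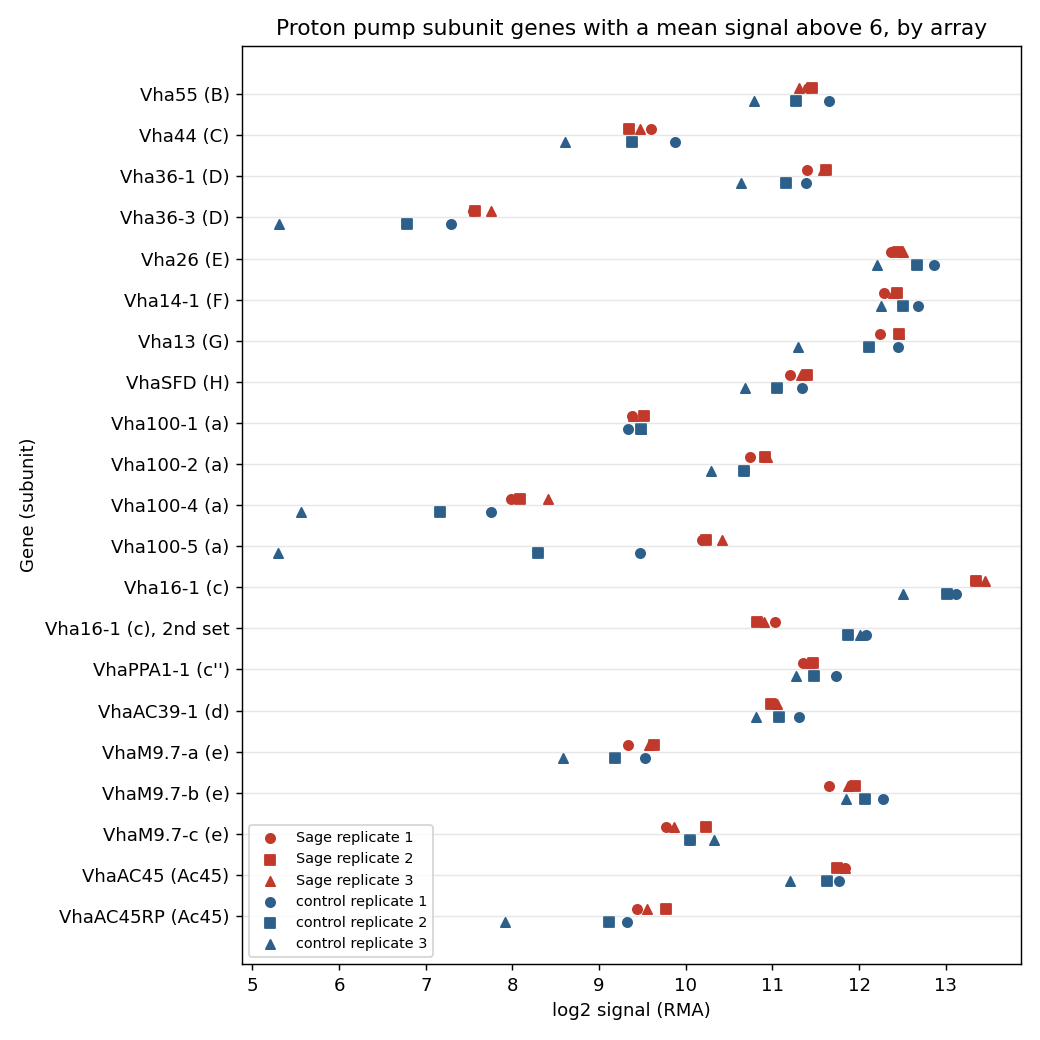
Each row is a pump probe set with a mean log2 signal above 6, with its subunit, and each point is 1 array (horizontal axis in log2 signal, Sage in red above control in blue, shapes for replicates). Control replicate 3 (blue triangles) is lowest of the 6 arrays for 17 of 20 genes, most clearly for Vha100-5, Vha100-4 and Vha36-3, and the Sage arrays of a gene span at most 0.46.

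In the Vo sector the widest range of differences was found among the a subunits, which line the path of the proton and direct the pump to its membrane. Vha100-5 read 10.19, 10.24 and 10.42 with Sage, against 9.47, 8.30 and 5.29 in the controls. The Sage arrays lay close together and above every control, while the controls spread by an SD of 2.16, larger than that of 99.3% of all genes. The difference of Vha100-5 was 2.60 (SE 1.03, 95% interval 0.08 to 5.11, adjusted p = 0.176 by limma), which is 6.05-fold. It was 1.40 without control replicate 3 (adjusted p = 0.0451 by limma) and 3.49 without control replicate 1 (adjusted p = 0.0474 by limma), and did not pass without any other array, with adjusted p-values from 0.255 to 0.384.

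Vha100-4, known from the acid-secreting midgut, had 7.98, 8.09 and 8.42 with Sage, against 7.76, 7.17 and 5.56 in the controls. Here too every Sage array was higher and control replicate 3 was far below the rest. The difference of Vha100-4 was 1.33 (SE 0.55, adjusted p = 0.195 by limma). It was 0.70 without control replicate 3 (adjusted p = 0.0955 by limma) and 1.80 without control replicate 1 (adjusted p = 0.0588 by limma). The broadly expressed Vha100-2, its direct neighbour in the RefSeq gene order, read 10.75, 10.92 and 10.94 with Sage, against 10.68, 10.67 and 10.29 in the controls. The groups of Vha100-2 did not overlap either, and its difference was 0.32 (SE 0.13, adjusted p = 0.197 by limma), or 0.19 without control replicate 3.

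Vha100-1, the a subunit known from neurons and synaptic vesicles, read 9.38, 9.52 and 9.39 with Sage, against 9.33, 9.48 and 9.49 in the controls, so that the arrays of both groups were interleaved. Its difference was -0.01, with a 95% interval of -0.22 to 0.21, and control replicate 3 was not low for this gene. Vha100-3, known from the testis, was dim in both groups, at 4.76 ± 0.08 with Sage and 4.73 ± 0.03 in the controls (SD, n = 3 each).

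The c subunits form the proton-carrying ring, and the main c gene, Vha16-1, gave opposite readings on its 2 probe sets. The brighter read 13.33, 13.35 and 13.45 with Sage, against 13.12, 13.02 and 12.50 in the controls. Its difference was 0.50 (SE 0.17, adjusted p = 0.129 by limma), or 0.31 without control replicate 3 and 0.62 without control replicate 1. The other read 11.03, 10.82 and 10.90 with Sage, against 12.08, 11.88 and 12.01 in the controls. The second probe set fell by 1.07 on the log2 scale (SE 0.10, adjusted p = 0.00199 by limma), where 9.45% of all probe sets were called lower, and was the only 1 of the 32 Vha probe sets to pass. It stayed past the threshold without each array in turn, with differences of -1.13 to -1.03 and adjusted p-values up to 0.0191 by limma, and the controls were close to each other in it (SD 0.10, n = 3).

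The change of the second over the first Vha16-1 probe set was -1.57 (no overlap between groups, exact two-sided permutation p = 0.1, the smallest that 3 arrays against 3 allow). Of 327 genes with more than 1 probe set above a mean of 6, 22 (6.73%) had differences at least that far apart, the median being 0.41, and 88 (26.9%) had differences of opposite sign. The suffix of the second set marks it as one whose probes are shared by several transcripts. The sets of Vha100-1, Vha100-2, Vha26, Vha44, Vha55 and VhaAC45 carry the same suffix. RefSeq lists 4 transcripts of Vha16-1. The files used here do not place the probes on them. The control probe sets for transcript ends, read as 3′ minus 5′ signal, were higher on the Sage arrays by 0.99 for actin, 0.51 for GAPDH and 0.43 for eIF-4a, each without overlap. The part of that difference in the Vha16-1 readings was not tested.

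**Figure D3:**
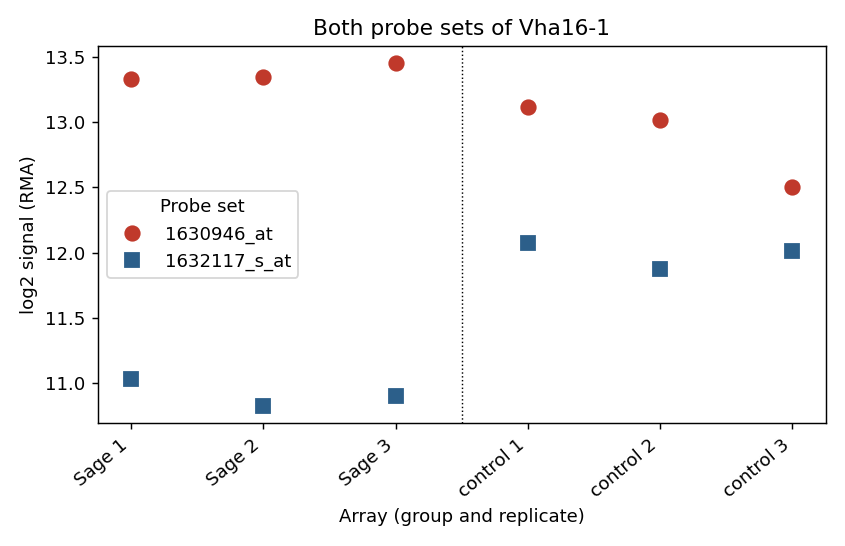
Log2 signals of both Vha16-1 probe sets on the 6 arrays, Sage left of the dotted line and control right of it. The brighter set (circles) is between 13.33 and 13.45 with Sage and between 12.50 and 13.12 in the controls, and the other (squares) between 10.82 and 11.03 with Sage and between 11.88 and 12.08 in the controls.

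The other 4 c genes, Vha16-2, Vha16-3, Vha16-4 and Vha16-5, were dim, with group means between 4.40 and 5.32 and differences from -0.15 to 0.10. VhaPPA1-1, the c″ member of the ring, read 11.36, 11.47 and 11.43 with Sage, against 11.73, 11.48 and 11.27 in the controls, a difference of -0.07 (95% interval -0.40 to 0.25). VhaAC39-1 (subunit d), which joins the shaft to the ring, read 11.00, 10.99 and 11.05 with Sage, against 11.31, 11.08 and 10.81 in the controls, a difference of -0.05 (95% interval -0.39 to 0.28). Both genes had Sage values inside the control range, and without control replicate 3 their differences were -0.19 for VhaPPA1-1 and -0.18 for VhaAC39-1. The paralogs VhaPPA1-2 and VhaAC39-2, with group means between 4.95 and 5.19, were dim and had differences of -0.04 and 0.13. VhaAC39-2 was higher on every Sage array than on every control array (adjusted p = 0.352 by limma).

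The small e subunits included 2 brightly read paralogs besides VhaM9.7-b. VhaM9.7-b read 11.65, 11.95 and 11.87 with Sage, against 12.28, 12.07 and 11.85 in the controls, a difference of -0.24 (95% interval -0.59 to 0.11). VhaM9.7-a read 9.34, 9.63 and 9.58 with Sage, against 9.53, 9.19 and 8.58 in the controls, a difference of 0.42 (95% interval -0.20 to 1.03). In both the groups overlapped, and the difference of VhaM9.7-a was 0.15 without control replicate 3. VhaM9.7-c read 9.77, 10.23 and 9.87 with Sage, against 10.05, 10.05 and 10.33 in the controls, and with Vha100-1 it was the other gene of this brightness for which control replicate 3 was the highest control. The difference of VhaM9.7-c was -0.19, or -0.09 without control replicate 3. VhaM9.7-d was dim, with a difference of -0.01.

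Of the accessory genes, VhaAC45, the Ac45 protein of the membrane sector, read 11.84, 11.75 and 11.84 with Sage, against 11.77, 11.63 and 11.21 in the controls, a difference of 0.27 (95% interval -0.11 to 0.66), or 0.11 without control replicate 3. Its relative VhaAC45RP read 9.44, 9.77 and 9.56 with Sage, against 9.32, 9.12 and 7.91 in the controls. VhaAC45RP was higher on every Sage array, by 0.81 (SE 0.38, adjusted p = 0.241 by limma), by 0.37 without control replicate 3 and by 1.08 without control replicate 1. The other accessory protein of the pump, ATP6AP2, is no longer named with Vha and is not counted here, and read 11.98, 12.01 and 12.04 with Sage, against 12.19, 12.03 and 11.57 in the controls.

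All 13 broadly expressed or main genes had mean signals above 6, the lowest being 9.38 (Vha44), whereas 11 of the 18 other paralogs were at or below 6, where all genes at or below 6 numbered 4594 of 11982. The median difference was -0.05 over the 7 broadly expressed paralogs, 0.23 over the 6 main genes and 0.01 over the 18 others. Among the others, it was 0.81 over the 7 with a mean above 6 and -0.04 over the 11 dim ones, against 0.03 over all genes above 6. Leaving out single arrays moved these medians. That of the broadly expressed paralogs was -0.18 without control replicate 3 and 0.07 without control replicate 1, and that of the main genes 0.02 and 0.41 without the same arrays. The median of the 18 others was -0.02 without Sage replicate 2 and 0.07 without Sage replicate 1, and that of the 7 brighter others was 0.37 without control replicate 3 and 1.08 without control replicate 1. The median SD among the controls was 0.76 for the 7 brighter others, 0.23 for the broadly expressed paralogs and 0.14 for all 18 others, and these were not tested against each other. By these representative probe sets no class had a called gene, where 26.1% of all genes with a mean above 6 were called.

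Within an array, the change of a paralog can be set against that of the broadly expressed or main gene of the same subunit. Relative to Vha100-2, the change with Sage was 2.27 for Vha100-5 and 1.01 for Vha100-4, and -0.33 for Vha100-1. Relative to Vha36-1 it was 0.69 for Vha36-3, relative to VhaM9.7-b it was 0.66 for VhaM9.7-a and 0.05 for VhaM9.7-c, and relative to VhaAC45 it was 0.53 for VhaAC45RP. In all but VhaM9.7-c the ratios of the Sage arrays did not overlap those of the controls. Each of these had an exact two-sided permutation p of 0.1 (n = 3 a group), the smallest possible, and 0.179 after Benjamini-Hochberg adjustment over 34 ratios, 33 of them between paralogs. The share of non-overlapping ratios among gene pairs at large was not computed. Of all genes taken singly, 19.9% were higher on every Sage array than on every control array and 21% lower. Without control replicate 3 the change relative to Vha100-2 was 1.21 for Vha100-5 and 0.51 for Vha100-4, and that of Vha36-3 relative to Vha36-1 was 0.33. It was then -0.17 for Vha100-1 relative to Vha100-2, 0.50 and 0.25 for VhaM9.7-a and VhaM9.7-c relative to VhaM9.7-b, and 0.26 for VhaAC45RP relative to VhaAC45.

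The control embryos differed from each other in pump genes more than the Sage embryos did. Among the 20 genes with a mean above 6, the SD was larger in the controls for 19, where this held for 78% of all genes of that brightness. Control replicate 3 was the lowest of the 6 arrays for 17 of the 20 (12 of 13 broadly expressed or main genes, and 5 of 7 others), where 31.6% of all genes above 6 had it lowest. For 18 of the 20, control replicate 1 was the highest control, as it was for 1998 of all 7388 genes above 6. The distance from control replicate 3 up to control replicate 1 had a median of 0.66 over the 20 genes, from 0.39 to 1.27 in the 13 broadly expressed or main genes, and up to 4.18 in Vha100-5, while over all genes above 6 its median was -0.18. Control replicate 1 was above every Sage array for 7 of the 20, a share near that of all genes above 6 (2680 of 7388).

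Marker lists of late stages and of other cell types were read on the same arrays, and many but not all of their genes were low in control replicate 3. That array was the lowest of the 6 for 10 of 13 measured genes of late epidermis and cuticle (17 listed), 7 of 10 neuron markers (12 listed) and 9 of 13 midgut markers (15 listed), where this held for 3113 of 11982 genes. Their mean level per array was 9.75 to 10.06 with Sage, against 9.10, 7.69 and 6.18 in control replicates 1, 2 and 3, for the cuticle list. It was 7.16 to 7.73 with Sage, against 7.52, 7.38 and 5.86 in the controls, for the neuron list, and 7.64 to 7.87 with Sage, against 7.79, 7.38 and 6.78 in the controls, for the midgut list. Log2 signals have no zero, and 1 of the 13 cuticle genes, 2 of the 10 neuron markers and 4 of the 13 midgut markers had means at or below 6. The part of these tissues in the pump values was not tested.

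Of the cuticle genes 4 rose and none fell, where 5.6% of all genes were called higher and 12.2% lower. The count of risen genes was 1 without Sage replicate 1, 0 without Sage replicate 2 or 3, 9 without control replicate 1 and 1 without control replicate 2, and 1 gene fell without control replicate 3. Of all 11982 genes, 384, 311 and 232 were called higher without Sage replicates 1, 2 and 3. Without control replicates 1 and 2 these were 1089 and 396, and 1618 were called lower without control replicate 3. TwdlN and Cpr49Ae, of cuticle proteins, rose by 4.02 (SE 0.74, adjusted p = 0.0189 by limma) and 4.13 (SE 0.79, adjusted p = 0.0214 by limma). Neither passed without control replicate 2 or without any one Sage array (adjusted p from 0.0618 to 0.098 by limma). Of the other 2, named after their values were seen, Ccp84Ae lost its call on leaving out Sage replicate 2 or 3. Ddc, which encodes an enzyme of cuticle tanning, lost it on leaving out any array but control replicate 1.

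Of the 10 neuron markers none passed, with 7 positive and 3 negative differences. Gad1 and Rab3 had differences of 1.75 and 1.28, and elav, a marker of neurons in general, ran the other way. It read 10.21, 10.08 and 10.19 with Sage, against 10.40, 10.72 and 11.10 in the controls, so that control replicate 3 was its highest array. Of the 13 midgut markers none passed, with 9 positive and 4 negative differences. The protease genes lambdaTry and Jon65Aiv had differences of 2.86 and 1.20, while Jon25Bi, of the same family as Jon65Aiv, was at -0.78. The transcription factor gene srp was at -0.45, highest in control replicate 3 and without overlap between the groups. Without control replicate 1, 1 neuron marker was called lower, and 2 midgut markers were called higher and 1 lower, the midgut counts being the same without control replicate 3. Of all 11982 genes, 1089 were called higher and 1669 lower without control replicate 1, and 887 and 1618 without control replicate 3.

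**Figure D4:**
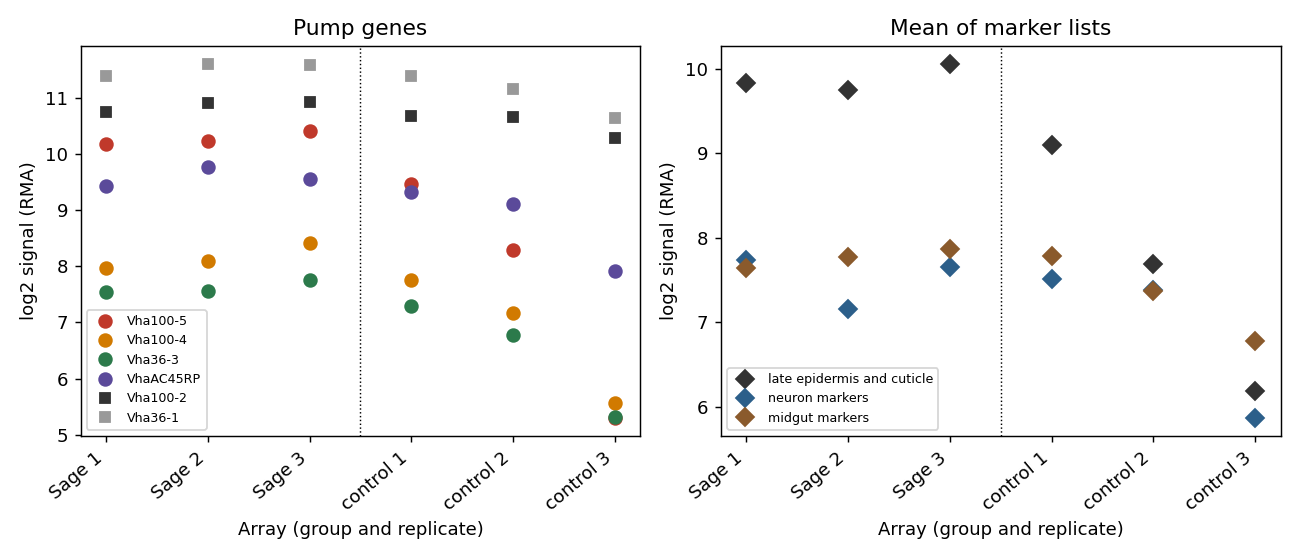
Left, log2 signals of 4 paralogs (circles) and of the broadly expressed Vha100-2 and Vha36-1 (squares) on each array; right, the mean log2 level of 3 marker lists on the same arrays, Sage left of the dotted line and control right of it. Vha100-5 (5.29, partly hidden by Vha36-3 at 5.31), Vha100-4 and the late epidermis and neuron lists are all lowest in control replicate 3, and each pump gene is close to level across the Sage arrays.

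Malpighian tubule, where the pump also sits in the plasma membrane, and testis, from which some paralogs are known, were read by 9 and 13 marker genes. Of the 9 Malpighian tubule markers (11 listed) none passed, 4 had means at or below 6, and their mean level was 6.14 to 6.30 with Sage, against 6.11 to 6.24 in the controls. Irk3, a potassium channel gene, and SecCl, a chloride channel gene, had differences of -1.05 and 0.82 with adjusted p-values of 0.126 and 0.11 by limma. Without control replicate 3, 1 tubule marker was called higher and 1 lower, where 887 of all 11982 genes were called higher and 1618 lower. Of 13 genes of testis and male germline, 10 were at or below 6, among them aly, can and sa, which act in the spermatocyte, with mean levels of 4.54 to 4.72 with Sage, against 5.22 to 5.38 in the controls. The 2 that fell, where 12.2% of all genes were called lower, were twe (-3.59) and bam (-3.29), which act in the female germline as well. Vha36-2, Vha68-3, Vha100-3 and VhaPPA1-2, which need not be all the paralogs known from the testis, were thus dim alongside most of this list.

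Of 6 measured genes of pump assembly and regulation (10 listed) none passed, the nearest being RagC-D, of the lysosomal nutrient-sensing GTPases, at 0.39 (adjusted p = 0.0672 by limma), and Rbcn-3B, of the complex that assembles the sectors, at -0.38 (adjusted p = 0.0788 by limma). Of 21 lysosomal and endosomal genes (25 listed), 2 rose, 5 fell and 14 did not pass, with a median of -0.14, where 5.6% of all genes were called higher and 12.2% lower. cathD, the cathepsin D protease, read 10.18, 10.32 and 10.18 with Sage, against 11.67, 11.56 and 11.68 in the controls, a difference of -1.41 (SE 0.08, adjusted p = 0.000912 by limma) in which the controls were alike. Ppt1, a palmitoyl-protein thioesterase, fell by 1.51 on the log2 scale (adjusted p = 0.0126 by limma). beta-Man, a mannosidase, rose by 0.78 (adjusted p = 0.0182 by limma), and Cln3, a lysosomal membrane protein gene with dim signal, rose by 1.30 (adjusted p = 0.0255 by limma).

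The other 3 that fell, named after their values were seen, were Hrs, of endosomal sorting (-0.63), lt, of vesicle tethering (-0.51), and ClC-c, of the chloride channel family (-0.78). Of these 7 genes cathD alone passed without each array in turn. For beta-Man the limma adjusted p was 0.0755, 0.0614 and 0.0824 on leaving out Sage replicates 1, 2 and 3 in turn. Leaving out Sage replicate 1 ended the calls of Ppt1 (0.0544), ClC-c (0.0614) and lt (0.0639). Leaving out Sage replicate 3 ended those of Ppt1 (0.0659), ClC-c (0.0809), Hrs (0.0605) and Cln3 (0.107). Cln3 was also lost on leaving out Sage replicate 2 (0.0971), and Cln3, lt and ClC-c on leaving out control replicate 2 (0.0881, 0.0611 and 0.0572). Their differences kept their sign in each of these fits. Over the 21 genes, leaving out single arrays gave 0 to 2 higher and 2 to 6 lower. Over all 11982 genes it gave 232 to 1089 higher and 800 to 1669 lower.

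Of 16 genes of ion and water transport beside the pump (18 listed), Nhe1, a sodium/proton exchanger, rose and 15 did not pass, with a median of 0.37. The share of this list called higher is near the 5.6% of all genes called higher. The list had 4 genes called higher without control replicate 1, and 2 higher and 1 lower without control replicate 3. Of all 11982 genes, 1089 were called higher without control replicate 1, and 887 higher and 1618 lower without control replicate 3. Nhe1 read 8.63, 8.58 and 8.72 with Sage, against 7.97, 8.12 and 7.99 in the controls, a difference of 0.62 (SE 0.08, adjusted p = 0.007 by limma). Its groups were well apart and it passed without each array in turn, but not with the replicate number as a block (adjusted p = 0.0562 by limma). Of 7 salivary gland effector genes, chosen with their earlier results on these arrays known, 6 rose and 1 fell, where 5.6% of all genes were called higher and 12.2% lower, among them Eig71Ee at 5.12 and Sgs4 at 3.26, and fog fell by 0.82 on the log2 scale. Of 6 cell cycle genes (12 listed) 3 fell and none rose, where 12.2% of all genes were called lower. Among them CycB was at -2.57 and CycB3 at -2.47. Without any one Sage array 2 fell, where 800 to 997 of all 11982 genes were called lower. The mean level of the 6 genes was 8.96 to 9.12 with Sage, against 10.11, 10.20 and 11.16 in control replicates 1, 2 and 3.

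The control RNAs added at hybridisation were higher on the Sage arrays, by 1.36 for BioB, 0.92 for BioC, 1.17 for BioDn and 0.37 for CreX, while the labelling control DapX had a difference of -0.62, each without overlap between the groups (exact two-sided permutation p = 0.1, the smallest possible, n = 3). Handling and group therefore cannot be told apart for the pump genes.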

How the data were processed

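Per the labels' protocols, RNA was extracted with TriZol, column-purified, then amplified and labelled with an Affymetrix kit that starts from the 3′ end of transcripts. The deposited values are log2 signals per probe set, and RMA and Partek are named, without versions, in the submitters' processing notes. RMA equalises array distributions, so a change of total RNA per embryo cannot be seen.

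Of 18952 probe sets, 183 controls were left out and 18769 were tested. Exactly 1 gene was named by 13647, and 13544 symbols were updated by Entrez identifier to RefSeq (Release 6). No array build is given, so no coordinates were used, and no sequences are shown. The test was limma 3.58.1 in R 4.3.3 (lmFit, eBayes), Sage minus control, two-sided, without covariate. On simulated data for this comparison (18769 probe sets, 200 changed) it recovered 22.4% of 1.5-fold, 56.7% of 2-fold and 78.8% of 4-fold changes, with 9 false among 114 calls. The simulated noise was independent between probe sets and had the same SD in both groups. Only 200 probe sets were changed, where 2571 were called in the data, and the adjusted p depends on that share. These rates therefore need not hold in the data, nor for the brighter pump genes, most of which spread more among the controls.

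Members, paralog classes and gene lists were chosen with earlier results of these data known. All Vha genes are named, and each other list contributes at most its 2 strongest called genes in each direction, or, with no call, its 2 with the greatest absolute difference. ATP6AP2, aly, can, sa, Hrs, lt, ClC-c, Ccp84Ae, Ddc, elav, srp and Jon25Bi are outside this rule.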

Additional observations from a re-analysis of the deposited data

How the results depend on the processing

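The number of arrays and the spread of the controls limit these results, and dim paralogs have compressed differences. No Vha gene passed under the replicate block, a mean signal above 6, median centring, quantile normalization, a trended and robust prior, 1 probe set per gene or the mean of a gene's probe sets. Leaving out each array gave 0 to 2 Vha genes higher and 0 lower, where it gave 232 to 1089 higher and 800 to 1669 lower of all 11982 genes. The second Vha16-1 probe set passed in every setting that kept it. Array weights, whose estimate did not converge and gave control replicate 2 a weight of 32, called 12 Vha genes higher and 3 lower. Gene-by-gene weights, added after seeing the data, called 5 higher (Vha100-4, Vha100-5, Vha14-2, Vha16-1 and Vha36-3), and gave control replicate 3 a weight of 0.215.

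Over all probe sets 797 were higher and 1774 lower. With the replicate block these were 341 and 1057, with array weights 4869 and 4922, with gene-by-gene weights 2243 and 2771, and without each array 266 to 1276 and 934 to 2035. Of the genes on the other lists 13 were higher and 11 lower. These were 5 and 7 with the replicate block, 43 and 33 with array weights, 26 and 19 with gene-by-gene weights, and 6 to 23 and 7 to 14 without each array. The deviations of Sage and control arrays of the same number had correlations of -0.126, -0.0681 and -0.248. Those of different numbers ran from -0.073 to 0.294. Deviations from a mean of 3 arrays cannot show whether collections were shared, so whether the numbers pair the samples is not known.

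The median of the 18 other paralogs was 0.81 with a mean signal above 6, which leaves 7 of them, and -0.0781 with median centring. Without single arrays the median of the broadly expressed paralogs ran from -0.18 to 0.07 and that of the 18 others from -0.02 to 0.07, so both changed sign. Among single genes, none of them called, signs turned as follows. Vha100-3 was -0.059 with median centring, Vha100-1 was 0.10 with quantile normalization and Vha16-1 was -0.29 with the mean of its probe sets. With array weights Vha16-2 was 0.0355, Vha16-5 0.13, Vha36-2 0.0314 and VhaPPA1-2 0.055, and with gene-by-gene weights Vha16-2 was 0.000709, Vha16-5 0.065 and VhaPPA1-2 0.0282. Without each array the ranges were -0.0558 to 0.0216 for Vha100-1, -0.00793 to 0.0726 for Vha100-3, -0.15 to 0.0149 for Vha16-5, -0.32 to 0.00662 for Vha26, -0.16 to 0.48 for Vha44, -0.0644 to 0.37 for Vha55, -0.18 to 0.0684 for VhaAC39-1, -0.0939 to 0.0586 for VhaM9.7-d and -0.19 to 0.0472 for VhaPPA1-1. The cause of these changes was not tested.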
